A study of Homo sapiens with 6 samples.

Results

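RSAD2, CMPK2, SAMHD1, TYMP and GMPR encode proteins that make, change or break down nucleotides, and the first 3 are known antiviral factors. They were chosen by gene symbol, which matched 5 of the 60671 rows of the deposited expression table, 1 row each. The libraries were made from HaCaT, a human keratinocyte line that grows without limit and is labelled as wild type. One group of 3 libraries came from cells kept 24 h in serum-free medium that contained 160 ng/mL of IFN-beta, a type I interferon. The control group of 3 libraries came from cells handled in parallel in the same medium without interferon, so both groups were without serum for those 24 h. Nothing in the labels says whether the replicates were separate cultures, and a p-value here weighs a difference against library-to-library spread that could be purely technical.

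Viperin, the product of RSAD2, is a radical SAM enzyme that converts CTP into a chain-terminating analog, ddhCTP, which viral RNA polymerases incorporate. CMPK2 is a mitochondrial kinase that phosphorylates CMP, UMP and their deoxy forms, and its gene lies head to head with RSAD2. SAMHD1 hydrolyses deoxynucleoside triphosphates (dNTPs) and so lowers the pool from which retroviruses copy their DNA. TYMP (thymidine phosphorylase) splits thymidine into thymine and a sugar phosphate, and GMPR (guanosine monophosphate reductase) turns GMP back into IMP. Type I interferon acts through a transcription factor complex that binds the interferon-stimulated response element, whose core is a pair of GAAA half-sites.

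The stretch between CMPK2 and RSAD2 is shown because both genes start there on opposite strands. In the deposited coordinates CMPK2 (chr2:6840570-6866635, minus strand) and RSAD2 (chr2:6865806-6898239, plus strand) overlap by 830 bases. Promoter windows of 300 bases, from 250 before to 50 after each start, were taken from RefSeq (GRCh38.p14), which held 9 windows for the 5 genes. GAAANNGAAA, the element's core, and GAAANGAAA, with its half-sites 1 base closer, were searched on both strands. The core was present in 3.57% of the 35116 RefSeq windows, and the closer form in 3.12%. RSAD2 has 2 RefSeq starts, 11892 bases apart. At the downstream one (chr2:6877777) the window held 1 core, from -145 to -136, read on the strand opposite to the gene. Its bases up to the first exon of the GENCODE transcript beginning at chr2:6877665 are printed on the plus strand, with the core in capitals.

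RSAD2, chr2:6877527-6877664: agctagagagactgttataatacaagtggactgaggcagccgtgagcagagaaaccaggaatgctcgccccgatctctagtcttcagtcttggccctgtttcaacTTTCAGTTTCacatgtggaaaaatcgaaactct

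The window of the upstream RSAD2 start (chr2:6865885) held no core but 4 copies of GAAANGAAA within 101 bases. They follow each other at 34, 34 and 24 bases. These copies lie in or beside annotated CMPK2 exon sequence, so only the copies with their nearest flanks are printed, on the plus strand with the match in capitals.

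copy 1, chr2:6865723-6865751: ccccgcctcgGAAACGAAAcctggcggga
copy 2, chr2:6865757-6865785: gcgccggcggGAAACGAAAcccggaggga
copy 3, chr2:6865791-6865819: gcgccagcggGAAACGAAAgcgaagcgtt
copy 4, chr2:6865815-6865843: gcgttgcgggGAAACGAAAgccggaggcc

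All 4 copies carry the same 9 letters. Copies 3 and 4 also fall in the window of a CMPK2 start (chr2:6865819), where they read on the strand opposite to that gene, at 10 to 18 bases after and 14 to 6 bases before it. The other CMPK2 windows and those of SAMHD1, TYMP and GMPR held neither form. A match is a run of letters, not a measured binding site, and no binding was measured here.

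Levels are FPKM, fragment numbers divided by gene length and by the size of the library, as the authors deposited them. Errors of levels are SD (n = 3 libraries per group), and changes are differences of log2(FPKM + 0.5) with SE, a scale on which low genes change by less than their FPKM ratio. The totals of the 6 libraries, inferred from the steps of the FPKM values, were 25832158 to 30594527 reads. Across genes, which are not independent of each other, r was 0.9938 to 0.9951 between libraries within a group and 0.9732 to 0.9759 between groups. Keratinocyte markers were abundant, with a summed FPKM over 9 genes of 3452 to 3836 in controls and 3222 to 3276 with IFN-beta, and KRT5 and KRT14 led them at 1374 ± 81.0 and 1033 ± 42.8 in controls. KRT14 did not pass the test, while KRT5 fell by 0.51, KRT15 by 1.29 and KRT10 by 1.16 (log2). TP63 rose by 0.41 and DSG3 was at 57.6 ± 1.70 and 57.7 ± 0.677 FPKM. Of the 9 keratinocyte markers 3 (33.3%) were higher, 3 (33.3%) lower and 3 did not pass, with a median change of 0.09. Over all genes tested 22.5% were higher and 19.9% lower. The 10 leukocyte and myeloid markers summed to 3.35 to 4.65 FPKM in controls and 4.60 to 4.98 with IFN-beta. LYZ and FCER1A were listed at 0 throughout, and CD14 was the highest at 3.18 ± 0.678 and 3.51 ± 0.274. ITGAM rose by 0.54, a call lost in 6 of the 18 alternatives, and it was not tested with a minimum mean of 2 FPKM. The 10 markers of fibroblasts, melanocytes and endothelium summed to 3.73 to 4.78 and 6.13 to 7.32 FPKM. DCN and MLANA were at 0 throughout, CDH5 rose from 0.731 ± 0.0847 to 1.97 ± 0.101, COL1A1 rose by 0.48 (a call lost in 7 of the 18 alternatives), and PMEL did not pass at 1.41 ± 0.00470 and 1.57 ± 0.224. The part of other cell types in the results was not tested. In bulk RNA, more cells with a transcript and more transcript per cell cannot be told apart.

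All 5 genes were higher with IFN-beta, and in each of them every IFN-beta library lay above every control library. For comparison, 42.4% of the 15163 genes tested passed the threshold, a Benjamini-Hochberg adjusted p of 0.05 in limma, and 22.5% passed it in the upward direction. The groups did not overlap in 54% of the tested genes. Passing with a rise of at least 1 on the log2 scale, as the 5 genes did, was less common, at 2.96%. GMPR passed the filter on low values (a mean of 0.5 FPKM over all libraries) only through its IFN-beta libraries, so that its call adds little to the count. Over all tested genes the median change was 0.01.

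**Figure D1:**
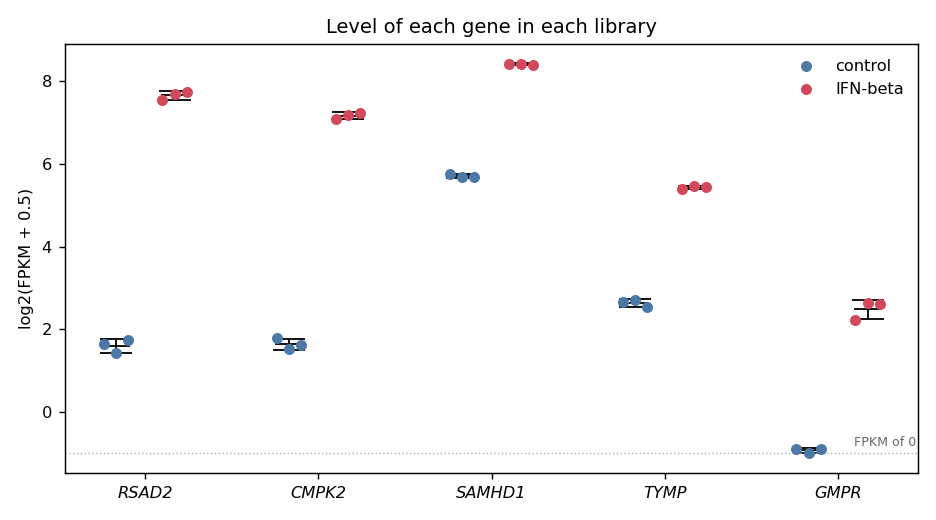
Level of RSAD2, CMPK2, SAMHD1, TYMP and GMPR in each of the 6 libraries, as log2(FPKM + 0.5). Points are libraries, bars the mean and SD of 3 libraries, and the dotted line marks an FPKM of 0. The groups do not overlap for any of the 5 genes, and SAMHD1 is the highest of them in both groups.

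RSAD2, the gene of viperin, was at 2.61, 2.17 and 2.86 FPKM in the 3 controls and at 186, 206 and 215 FPKM with IFN-beta. The lowest treated library was far above the highest control. The mean level was 79.5 times as high, 202 ± 15.0 against 2.55 ± 0.346 FPKM. Its change of 6.06 ± 0.09 (95% interval 5.86 to 6.26, limma adjusted p = 1.56e-10) ranked 9 among all tested genes. By level it moved from rank 11102 among the tested genes in controls to rank 582. In reads, the values rest on 76 to 90 fragments per control library and 6373 to 7678 per treated library.

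CMPK2, the mitochondrial nucleotide kinase next to it, was at 2.95, 2.37 and 2.57 FPKM in controls and at 135, 145 and 150 FPKM with IFN-beta. Controls spread over less than 1 FPKM, and the lowest treated library was again far above them. The means were 2.63 ± 0.294 and 144 ± 7.92 FPKM, a ratio of 54.5. The change was 5.53 ± 0.07 (95% interval 5.36 to 5.69, limma adjusted p = 9.57e-11), which ranked 12, and the level moved from rank 11036 to rank 919. Both genes of the pair were thus among the lower-ranked tested genes without interferon and close to each other there.

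Within the pair, RSAD2 rose more. The FPKM ratio of CMPK2 to RSAD2 was 1.13, 1.09 and 0.901 in controls and 0.725, 0.707 and 0.698 with IFN-beta. Every treated library had a lower ratio than every control. On the log2(FPKM + 0.5) scale the ratio fell by 0.54, with p = 0.1 in a two-sided exact permutation test over libraries and 0.1 after adjustment over the 3 ratios examined. With 3 libraries against 3 that is the smallest p the test allows, so no such ratio could pass 0.05. Which gene of the pair has the higher level depends on the length by which fragments are divided. The deposited FPKM used 1166 bases for RSAD2 and 1489 for CMPK2, close to the mean length of their GENCODE transcripts (1188 and 1489 bases). Their longest transcripts have 3519 and 2884 bases. Divided by those, the IFN-beta means were 67.0 for RSAD2 and 74.1 for CMPK2, and the ratio was 1.62 ± 0.191 in controls and 1.11 ± 0.021 with IFN-beta. The order of the pair therefore reversed with the length, while the fall of the ratio did not. A length that is the same in both groups cancels in that fall. Whether the mix of transcripts differed between the groups was not tested.

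**Figure D2:**
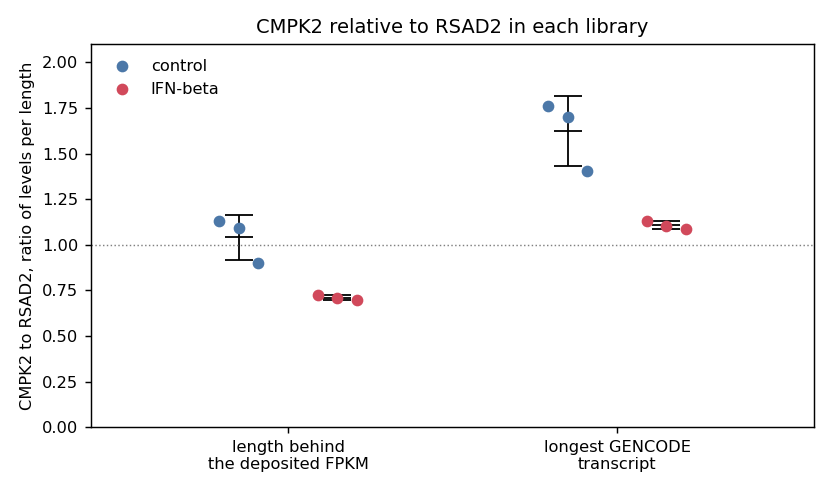
Ratio of CMPK2 to RSAD2 in each library, from the deposited FPKM (left) and from the same reads divided by the longest GENCODE transcript (right). Points are libraries, bars the mean and SD of 3 libraries, and the dotted line marks equal levels. The treated libraries lie below the controls with either length, under 1 on the left and above 1 on the right.

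SAMHD1, the dNTP hydrolase (chr20:36890229-36951843, minus strand), was already well expressed without interferon, at 53.6, 51.3 and 51.0 FPKM. With IFN-beta the libraries held 343, 344 and 337 FPKM. The spread within each group was narrow beside the gap between groups. The means were 52.0 ± 1.43 and 341 ± 4.10 FPKM, a ratio of 6.57, and the change was 2.70 ± 0.04 (95% interval 2.62 to 2.78, limma adjusted p = 8.51e-11). That rise ranked 66, and the level went from rank 2837 to rank 296, the highest of the 5 genes in both groups.

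TYMP, thymidine phosphorylase (chr22:50525752-50530032, minus strand), had 5.83, 6.03 and 5.31 FPKM in controls and 41.5, 43.6 and 43.3 FPKM with IFN-beta. Treated libraries were within 3 FPKM of each other. The means were 5.73 ± 0.373 and 42.8 ± 1.13 FPKM, a ratio of 7.48, with a change of 2.80 ± 0.06 (95% interval 2.67 to 2.93, limma adjusted p = 2.00e-09) that ranked 62. The interval of its change overlaps that of SAMHD1, while its level was far lower in both groups; the difference between the 2 changes was not tested. TYMP shares 10.5% of its exonic bases with ODF3B and 10.2% with SCO2, both on the same strand, so some fragments could be assigned to either gene. SAMHD1 shares 10.3% of its exonic bases with TLDC2 on the opposite strand, and the use of strand in counting is not given here.

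GMPR, the reductase of the purine pathway (chr6:16238587-16295549, plus strand), was nearly absent from controls, at 0.0363, 0 and 0.0415 FPKM. With IFN-beta it stood at 4.16, 5.69 and 5.58 FPKM, a mean of 5.14 ± 0.852. The control values rest on 1, 0 and 1 fragments, below the level that a floor of 3 fragments allows (0.107 to 0.125 FPKM), and the treated ones on 117, 141 and 159. Of these fragments 417 came from treated and 2 from control libraries, a ratio scaled for depth of 203.9 with an exact 95% interval of 56.1 to 1689.4 that covers counting error only. The change on the log2(FPKM + 0.5) scale was 3.41 ± 0.15 (95% interval 3.08 to 3.75, limma adjusted p = 3.68e-07). Its size depends on the pseudocount, with 5.38 at a pseudocount of 0.1 and 2.57 at 1. The level stayed the lowest of the 5 genes in both groups.

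Ordered by FPKM, the controls ran SAMHD1, TYMP, then CMPK2 and RSAD2, whose libraries overlapped, and GMPR last. With IFN-beta the order was SAMHD1, RSAD2, CMPK2, TYMP and GMPR. In that second order no neighbours overlapped, but the step between RSAD2 and CMPK2 holds only for the deposited lengths. The 3 antiviral genes thus took the top places with interferon, and the largest relative rises were in genes that had started at less than 3 FPKM.

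The closest counterparts of these enzymes differed by at most 0.41 (log2) in either direction. CMPK1, the cytosolic UMP and CMP kinase, was at 111, 119 and 120 FPKM in controls and 109, 113 and 105 FPKM with IFN-beta, so the groups overlapped. Its change of -0.09 ± 0.05 did not pass (limma adjusted p = 0.134). CMPK2 stood at 0.0267, 0.0200 and 0.0215 of CMPK1's FPKM in controls and at 1.24, 1.28 and 1.43 of it with IFN-beta. By the deposited lengths the mitochondrial kinase transcript went from a small share of the cytosolic one to above it, a difference in log2 ratio of 5.62 (exact permutation test, p = 0.1, which is the lowest this design gives, and 0.1 adjusted over the 3 ratios). GMPR2, which catalyses the same reaction as GMPR, had 55.3 ± 1.87 FPKM in controls and 51.5 ± 1.68 with IFN-beta (change -0.10 ± 0.04, limma adjusted p = 0.0901). GMPR was at 0.0791, 0.109 and 0.112 of GMPR2's FPKM with IFN-beta, so GMPR2 remained the more abundant by far. The log2 ratio differed by 3.51, again with an exact permutation p of 0.1, but with 2 control fragments its size is set by the pseudocount, with 5.49 at 0.1 and 2.67 at 1. DTYMK, the kinase for dTMP, fell from 76.4 ± 0.749 to 59.6 ± 1.58 FPKM (-0.36 ± 0.04). UPP1, the uridine phosphorylase related to TYMP in reaction, rose from 60.0, 57.0 and 58.3 FPKM to 76.7, 76.6 and 80.5 FPKM (0.41 ± 0.04), and UPP2 was too low to test. CMPK1 and GMPR2 passed as lower under some alternatives: CMPK1 with quantile normalization or without control replicate 1, and GMPR2 with quantile normalization, size factors or without control replicate 3.

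Beyond these genes, 7 lists covered the rest of nucleotide metabolism. Of their 91 genes, 78 were tested, of which 17 (21.8%) were higher, 25 (32.1%) lower and 36 did not pass. Those shares stand beside 22.5% higher and 19.9% lower over all tested genes. The median change was -0.05. NT5C3A, NT5E, XDH and SLC28A3, 4 of the 78 (5.13%), passed with a change of at least 1, all of them upward, beside 3.3% of all tested genes in either direction. SLC28A3 reached the filter on low values only through its IFN-beta libraries. Over all genes the share of calls that were upward was 53.2%, and it was 63.4% in TPM (FPKM rescaled to the same total) and 41.4% with quantile normalization. The lists had 18 higher and 20 lower in TPM and 15 and 32 with quantile normalization.

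**Figure D3:**
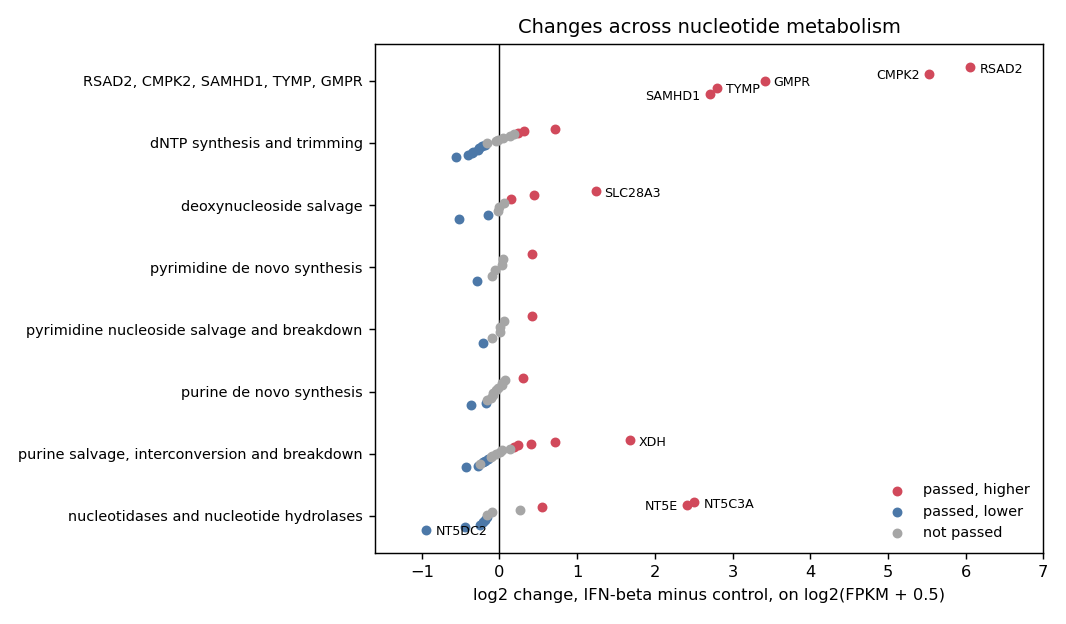
Change with IFN-beta on the log2(FPKM + 0.5) scale for RSAD2, CMPK2, SAMHD1, TYMP and GMPR (top row) and for the tested genes of 7 lists of nucleotide metabolism. Each point is a gene, coloured by whether it passed the test and in which direction. Most list genes lie within 1 of zero, and NT5C3A and NT5E come nearest to SAMHD1.

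The largest rises in the lists were in 5'-nucleotidases, which remove the phosphate from nucleoside monophosphates. NT5C3A, the cytosolic pyrimidine nucleotidase that acts on CMP and UMP, was at 74.9, 76.6 and 76.8 FPKM in controls and 414, 454 and 438 FPKM with IFN-beta. Its groups were far apart, and its change of 2.51 ± 0.04 (limma adjusted p = 3.94e-10) was close to that of SAMHD1. NT5E, the surface enzyme CD73 that forms adenosine from AMP, went from 28.3 ± 2.48 to 153 ± 4.47 FPKM (2.41 ± 0.06). NT5C2, which prefers IMP and GMP, rose by 0.55, while NT5DC2 fell by 0.94, from 34.3 ± 2.54 to 17.6 ± 0.227 FPKM. Of the 12 tested genes of this list 3 (25%) rose, 6 (50%) fell and 3 did not pass, beside 22.5% and 19.9% over all tested genes. Those that did not pass included ENTPD3 (-0.10) and NUDT16 (-0.16). The median of the list was -0.16, so its 2 strong rises were not shared by the list. In TPM 3 rose and 4 fell, and with quantile normalization 3 rose and 7 fell.

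The list around dNTPs, the substrates of SAMHD1, held enzymes that make them, hydrolases that trim them and redox proteins that serve ribonucleotide reductase. Of its 17 tested genes 3 (17.6%) rose, 8 (47.1%) fell and 6 did not pass, beside 22.5% and 19.9% over all tested genes, with a median of -0.16. NME3 fell by 0.40 and DTYMK by 0.36. GLRX, a glutaredoxin that can supply electrons to ribonucleotide reductase, rose from 6.12 ± 0.876 to 10.4 ± 0.883 FPKM (0.72 ± 0.10). DCTPP1 and DCTD did not pass, at -0.02 and 0.04. The subunits of ribonucleotide reductase, named here after their values were seen, did not move together. RRM1 fell by 0.26, RRM2 rose by 0.31 and RRM2B did not pass (-0.05).

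In the salvage of deoxynucleosides, where TYMP acts as a breakdown enzyme, 8 genes were tested. Of these 3 (37.5%) rose, 2 (25%) fell and 3 did not pass, beside 22.5% and 19.9% over all tested genes. Among the 3 that rose was SLC28A3, tested only because of its IFN-beta libraries, so the count is no support for a rise of the list. With a minimum mean of 2 FPKM, 7 genes were tested, of which 2 rose and 2 fell. The counts were 3 and 1 in TPM and 2 and 2 with quantile normalization. The nucleoside transporter SLC28A3 rose from 0.245 ± 0.0656 to 1.25 ± 0.0468 FPKM (1.24 ± 0.15), and the mitochondrial thymidine kinase TK2 from 6.90 ± 0.446 to 9.57 ± 0.140 FPKM (0.45 ± 0.07). SLC29A3 fell by 0.53. DGUOK, the mitochondrial deoxyguanosine kinase, fell by 0.15, a call that was lost in TPM and without control replicate 2 or IFN-beta replicate 1 or 2. The cytosolic kinases TK1 and DCK did not pass, both within 0.02 of zero.

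Pyrimidine synthesis supplies the CTP that viperin uses. Of its 6 tested genes only CTPS1, a CTP synthase, rose (36.6 ± 1.71 to 48.9 ± 1.33 FPKM, 0.42 ± 0.05), and DHODH fell by 0.29, a call lost with no filter on low values and without control replicate 1 or IFN-beta replicate 1. CAD (0.04) and CMPK1 were among the 4 that did not pass. Of 6 tested genes for pyrimidine nucleoside salvage and breakdown, UPP1 rose, CDA, a cytidine deaminase, fell by 0.22, and UCK2 (0.06) and UCKL1 (0.01) were among the 4 that did not pass. Both lists had 16.7% higher and 16.7% lower, beside 22.5% and 19.9% over all tested genes. The synthesis list had 1 higher and 2 lower with quantile normalization, and the salvage list 2 higher and 1 lower in TPM.

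Purine synthesis leads to IMP, from which AMP and GMP are made, and GMPR turns GMP back into IMP. Of 12 tested genes of the new synthesis of purines, PPAT rose by 0.31, IMPDH2 fell by 0.37 and PAICS by 0.17, and 9 did not pass, GART (0.03) and ATIC (-0.10) among them. That is 8.33% higher and 16.7% lower, beside 22.5% and 19.9% over all tested genes. With quantile normalization 1 rose and 5 fell. IMPDH2 catalyses the step from IMP towards GMP, and its level went from 298 ± 11.9 to 231 ± 3.88 FPKM. The PAICS call was lost without the trend in the variance and without IFN-beta replicate 1 or 3. Of 17 tested genes of purine salvage and breakdown, 5 (29.4%) rose, 5 (29.4%) fell and 7 did not pass, beside the same all-gene shares. With quantile normalization 4 of them rose and 7 fell. XDH (xanthine dehydrogenase), which forms uric acid, was at 6.35, 5.51 and 6.95 FPKM in controls and 19.7, 21.4 and 22.0 FPKM with IFN-beta. Its groups did not overlap and its change was 1.67 ± 0.08 (limma adjusted p = 1.09e-06). GDA, which deaminates guanine, rose by 0.72, PNP by 0.40, and APRT fell by 0.43, while HPRT1 was at 111 ± 6.14 and 111 ± 1.58 FPKM.

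Viperin needs an iron-sulfur cluster, which the cytosolic assembly machinery inserts. The list under that heading held 12 genes, not all of them cytosolic, since ISCU acts mainly in mitochondria. Their changes lay between -0.24 and 0.29. ISCU fell by 0.24 and MMS19 by 0.22, NDOR1 rose, and CIAO1 (-0.02) and CIAO2B (-0.14) did not pass. In all 1 (8.33%) rose and 6 (50%) fell, beside 22.5% and 19.9% over all tested genes. The counts were 1 and 3 in TPM and 1 and 8 with quantile normalization. The NDOR1 call was lost with no filter on low values, without the variance trend and without any 1 of the IFN-beta replicates. Of 6 proteins reported to bind viperin, the mitochondrial trifunctional enzyme subunit HADHB and the farnesyl diphosphate synthase FDPS both fell by 0.25 and VAPA by 0.21. The other 3 did not pass, among them IRAK1 (0.06) and CIAO1. That is 0% higher and 50% lower, beside 22.5% and 19.9% over all tested genes.

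SAMHD1 is phosphorylated by cyclin A with CDK1 or CDK2, which is known to blunt its antiviral activity. Transcripts of CCNA2 fell by 0.33 (68.6 ± 1.97 to 54.5 ± 1.55 FPKM) and of CDK1 by 0.28. CDK2, named after its values were seen, rose from 69.2 ± 1.07 to 75.4 ± 1.84 FPKM (0.12 ± 0.04, limma adjusted p = 0.0250), a call lost in 7 of the 18 alternatives. CDKN1A, the p21 inhibitor of these kinases, was at 17.6, 18.7 and 16.1 FPKM in controls and 50.8, 53.8 and 53.5 FPKM with IFN-beta, groups that were well apart. Its change was 1.57 ± 0.06 (limma adjusted p = 1.29e-07). CCND2 rose by 0.38, and PPP2R2A (0.06) and CDKN1B (-0.02) did not pass. The list held 9 genes, of which 3 (33.3%) rose, 3 (33.3%) fell and 3 did not pass, beside 22.5% and 19.9% over all tested genes. The counts were 4 and 2 in TPM and 2 and 3 with quantile normalization. Phosphorylation itself was not measured.

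The neighbourhood of each gene was read out to 100 kb. It held 40 other rows of the table, of which 18 were tested, 10 (55.6%) rose and 1 fell, beside 22.5% and 19.9% over all tested genes. A rise of at least 1 was seen in 6 (33.3%, beside 2.96% of all tested genes). Of these 6, NRIR, TLDC2, KLHDC7B and U62317.3 had control means under the filter of 0.5 FPKM, so that they were tested only because of their IFN-beta libraries, and these counts are no support for a rise around the 5 genes. With a minimum mean of 2 FPKM 8 neighbours passed in place of 11. NRIR, an antisense-class noncoding RNA on the same strand as CMPK2 and 106 bases from it, was at 0, 0.0298 and 0 FPKM in controls and at 1.04, 0.907 and 1.23 FPKM with IFN-beta. In fragments that is 1 against 104, a depth-scaled ratio of 101.7 with an exact 95% interval of 17.9 to 4055.7 for counting error only. It shares no annotated exon with CMPK2, and its change was 1.61. RNF144A, on the other side of RSAD2, had 2.89 ± 0.467 and 3.69 ± 0.0987 FPKM (0.32, limma adjusted p = 0.0543) and did not pass. It passed as higher with a minimum mean of 2 FPKM, in TPM and without control replicate 1.

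**Figure D4:**
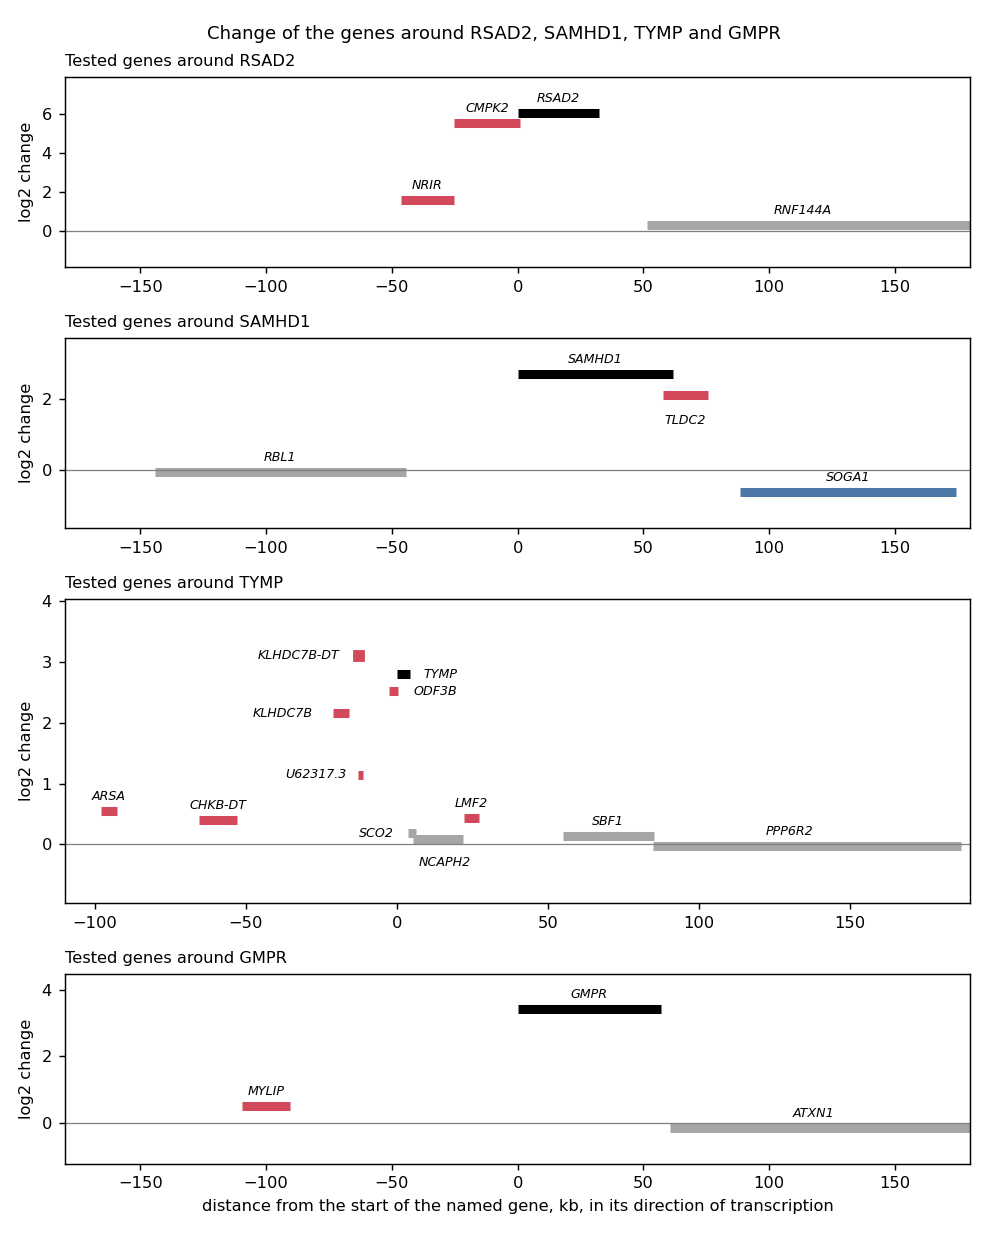
Tested genes within 100 kb of RSAD2 (with CMPK2), SAMHD1, TYMP and GMPR, placed by distance in kb from the start of the named gene along its direction of transcription (horizontal) and by log2 change with IFN-beta (vertical). Bars span each gene and may run past the panel edge; the named gene is black, genes that passed as higher red, as lower blue, and the rest grey. Rises of at least 1 are drawn beside RSAD2 (CMPK2 and NRIR), SAMHD1 (TLDC2) and TYMP, and none beside GMPR. NRIR, TLDC2, KLHDC7B and U62317.3 were tested only because of their IFN-beta libraries. Their positions are therefore no support for a rise around these genes.

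Around SAMHD1, TLDC2 rose from 0.367, 0.383 and 0.395 FPKM to 3.24, 3.29 and 3.40 FPKM (2.11). TLDC2 lies on the opposite strand with 45.4% of its exonic bases inside SAMHD1 exons, so fragments of the 2 genes may not be separable. Around TYMP, 7 of 11 tested genes (63.6%) rose, beside 22.5% over all tested genes. Among the 7 were KLHDC7B and U62317.3, tested only because of their IFN-beta libraries, so the count is no support for a local rise. ODF3B, directly upstream and sharing 15.1% of its exonic bases with TYMP, went from 2.42, 2.07 and 1.71 to 12.0, 14.3 and 16.3 FPKM (2.52). KLHDC7B-DT and KLHDC7B, which share no annotated exon with TYMP, rose by 3.10 and 2.16, to 19.6 ± 1.10 and 2.72 ± 0.134 FPKM. KLHDC7B-DT shares 42.7% of its exonic bases with U62317.4 on the opposite strand, so its fragments may not be its own. U62317.3 rose by 1.15 on 3 to 6 fragments per control library and 15 to 35 per treated one. SCO2, which overlaps TYMP at its other end, did not pass (0.18, limma adjusted p = 0.0900), and passed as higher in TPM and without IFN-beta replicate 2. SCO2 shares 71.7% of its exonic bases with a second SCO2 entry and 28.3% with TYMP, both on the same strand. It also shares 41.7% with U62317.2 on the opposite strand, so its fragments may not be its own.

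The genes whose pattern over the 6 libraries was most like each member were found by the Euclidean distance between log2(FPKM + 0.5) values centred on each gene's own mean. RSAD2 was nearest to the chemokine gene CXCL11 (distance 0.360), then to XAF1 (0.562) and the oligoadenylate synthetase OAS2 (0.606). CMPK2 lay nearest to XAF1 (0.265), OAS2 (0.318) and IFIT1 (0.506), so its 3 nearest did not include RSAD2. SAMHD1 was nearest to TYMP (0.177), TRANK1 (0.185) and PLSCR1 (0.193). Near TYMP lay the complement proteases C1R (0.111) and C1S (0.174). GMPR had PRAL (0.239), the GTPase gene GBP5 (0.242) and the nuclear body gene SP110 (0.274). With 3 libraries a group such a distance mostly reflects the size of the change, which for these genes was within 0.5 of that of the member they were listed with.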

How the data were processed

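The authors deposited 1 table of FPKM values for 60671 genes, in 6 libraries of HaCaT cells. Per the labels' protocols, CLC Genomics Workbench 11.0.1 was used, without a step named. The submitters' processing notes name the mouse builds GRCm38 and mm10, but all 60671 identifiers are human, and 58453 are in GENCODE release 29. Coordinates are those of the table, build inferred as GRCh38. Not given in the sources used here: aligner, counting program, strand setting. Labels name both TRIzol and RNeasy for the RNA, and give the batch as unknown.

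Whole reads were recovered from the FPKM steps for 30507 of 30507 genes above 0 (tolerance 0.01 reads plus 1e-07 of the reads). They summed to 99.72% to 99.73% of the library totals, which were inferred from the same FPKM values. The test was limma 3.58.1 (R 4.3.3; eBayes with trend; two-sided) on log2(FPKM + 0.5), for 15163 genes whose mean reached 0.5 FPKM, with Benjamini-Hochberg adjustment. Intervals of read ratios are exact and, like the floor of 3 reads, cover counting error only. Python 3.11.15 was used for the rest.

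The genes, the lists and the tests were chosen with earlier results of these data known. Named are the 5 genes, their counterparts, of each list up to 4 called genes by size of change and up to 2 uncalled by level, tested neighbours of RSAD2 and CMPK2, neighbours of the others that passed and changed by at least 1, and the 3 nearest patterns of each gene. A few genes that this rule would name are not reported here. SCO2, CDK2 and the subunits RRM1, RRM2 and RRM2B were added after their values were seen. Alternatives were other pseudocounts, filters, scalings, variance models, a replicate block, limma voom on recovered reads and each library left out.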

Additional observations from a re-analysis of the deposited data

How the results depend on the processing

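In all 18 alternatives the 5 genes rose and passed the threshold. With 1 library left out the changes (log2) were 5.97 to 6.13 for RSAD2, 5.46 to 5.60 for CMPK2, 2.69 to 2.73 for SAMHD1, 2.75 to 2.84 for TYMP and 3.34 to 3.54 for GMPR. Under the others they were 5.84 to 6.32, 5.32 to 5.77, 2.67 to 2.75, 2.70 to 2.90 and 2.57 to 7.03. GMPR spans that range because its controls held 2 fragments in all: its change was 5.38 and 2.57 at pseudocounts of 0.1 and 1, and 7.03 with voom on the recovered reads. Its ratio to GMPR2 moved with it, to 5.49 and 2.67 at those pseudocounts and 3.88 in TPM. The ratio of CMPK2 to CMPK1 moved to 5.81 and 5.41 at the pseudocounts of 0.1 and 1. The fall of the CMPK2 to RSAD2 ratio ran from -0.62 to -0.48 with 1 library left out. Genes past the threshold numbered 6431, with 5148 to 6165 when a library was left out and 5527 to 6874 otherwise. Calls in the nucleotide lists numbered 42, with 34 to 41 and 36 to 47, and those among the neighbours 11, with 8 to 11 and 8 to 13.

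Replicate numbers are shared between groups, but no pairing of the libraries was evident: deviations of same-numbered libraries correlated with r of -0.052, -0.098 and -0.058. Whether the numbers mark a pairing cannot be told from these values. In a fit with a replicate block, 5817 genes passed, 3082 higher and 2735 lower, and the 5 genes kept their calls. Each change kept its value, which such a block cannot alter when each replicate number occurs once per group.

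Of 87 other genes examined, 57 kept direction and side of the threshold in each alternative in which they were tested. Among these 57, NRIR, U62317.3, TLDC2, KLHDC7B, SLC28A3 and CDH5 were not tested in every alternative. A further 17 lost or gained a call: CDK2, ITGAM, COL1A1, DGUOK, DHODH, NDOR1 and PAICS lost one, and ATIC, CIAO2B, CMPK1, GMPR2, KRT14, NUDT16, PPP2R2A, RNF144A, SCO2 and UCK2 gained one. The remaining 13, none of which passed, changed sign. In TPM the values were 0.029 for CDKN1B, 0.022 for CIAO1, 0.026 for DCK, 0.024 for DCTPP1 and 0.034 for TK1, which stood at 0.0027 when rescaled without mitochondrially encoded genes. After quantile normalization they were -0.0031 for DCTD, -0.028 for DSG3, -0.015 for GART, -0.024 for HPRT1, -0.0059 for PMEL and -0.031 for UCKL1, and with size factors -0.024 for DSG3, -0.021 for HPRT1 and -0.013 for UCKL1. Leaving out a library gave -0.0011 to 0.087 for CAD, -0.039 to 0.0037 for CDKN1B, -0.071 to 0.032 for DCK, -0.065 to 0.016 for DCTPP1, -0.015 to 0.026 for DSG3, -0.0026 to 0.062 for GART, -0.041 to 0.032 for HPRT1, -0.0015 to 0.090 for IRAK1, -0.045 to 0.038 for TK1 and -0.043 to 0.052 for UCKL1. The cause was not tested. Depth limits the controls of GMPR and NRIR, which lie under the floor of 3 fragments, and 3 libraries a group limit every ratio test.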
